A study of Homo sapiens with 12 samples.

Results

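Cells sorted at day 36 for SCGB3A2, a small secreted protein of airway epithelium, were compared with cells at day 22 of the differentiation. Whether both came from the same differentiation run is not stated. The comparison took the 3 arrays labelled day 36-SC+ and the 2 arrays labelled day 22, 5 of the 12 arrays of the series, and covered all 23786 probe sets. Membership came from the sample titles, and no expression value was used to choose the arrays. All cells were RUES2, a human embryonic stem cell line, so every culture descended from 1 line. They passed through endoderm and anterior foregut stages to lung progenitors. A CD47 sort followed, and then culture in a medium low in Wnt activity. The titles name no sort at day 22. A sort was made at day 36, where the SCGB3A2- cells (n = 3) were collected beside the SCGB3A2+ cells. Day and sort thus cannot be told apart between these groups. The SCGB3A2- arrays, of the same day and with a sort of their own, are set beside the results. The labels do not state whether replicates were separate cultures. The p-values rest on the spread between the arrays alone, and that spread may be technical.

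As background, SCGB3A2 marks secretory cells of the conducting airway, whose secretions coat the airway surface with secretoglobins, mucins, antiproteases and antimicrobial proteins. In the developing lung, NKX2-1 specifies the epithelium. Its proximal cells become secretory, ciliated and basal cells, and its distal cells become the surfactant-making type 2 and flat type 1 cells of the alveoli. The foregut also gives rise to stomach, liver and intestine, so genes of those organs can appear in cultures of foregut endoderm. Arrays measured RNA from whole populations, in which fewer cells of a type and less RNA per cell cannot be told apart.

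The DNA before the start of genes at both ends of the comparison is shown first, for 3 genes among the largest increases and 2 among the largest decreases. Of the 15 largest increases 7 had an entry in the RefSeq promoter table of build GRCh38.p14, and of the 15 largest decreases 11 had one. Each sequence holds the 250 bases before the gene's annotated start, 5′ to 3′. Those of CHI3L2 (chr1:111227409-111227658 on the plus strand), a chitinase-like protein, CXCL17 (chr19:42442947-42443196 on the minus strand), a mucosal chemokine, and SFTPD (chr10:79949106-79949355 on the minus strand), a surfactant collectin, belong to increases. Those of WIF1 (chr12:65121306-65121555 on the minus strand), a secreted Wnt inhibitor, and HSD3B1 (chr1:119506953-119507202 on the plus strand), a steroid-making enzyme, belong to decreases. Capitals mark matches, on either strand, to 4 motifs, which may overlap. TTNNGNAA stands for C/EBP factors and CACTNNAG for the core bound by NKX2-1. The FOXA motif was written as TGTTTNC, and TATAAA was searched as the box bound by the general transcription machinery.
CHI3L2: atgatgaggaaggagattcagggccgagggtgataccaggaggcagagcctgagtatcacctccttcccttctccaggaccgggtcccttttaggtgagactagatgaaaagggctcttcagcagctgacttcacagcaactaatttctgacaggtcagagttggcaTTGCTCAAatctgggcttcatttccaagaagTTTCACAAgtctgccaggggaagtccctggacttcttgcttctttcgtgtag
CXCL17: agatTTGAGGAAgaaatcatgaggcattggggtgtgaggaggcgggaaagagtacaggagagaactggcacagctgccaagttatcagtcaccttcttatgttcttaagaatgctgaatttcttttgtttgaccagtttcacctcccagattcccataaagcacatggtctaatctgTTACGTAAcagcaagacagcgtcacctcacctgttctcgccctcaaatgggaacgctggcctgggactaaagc
SFTPD: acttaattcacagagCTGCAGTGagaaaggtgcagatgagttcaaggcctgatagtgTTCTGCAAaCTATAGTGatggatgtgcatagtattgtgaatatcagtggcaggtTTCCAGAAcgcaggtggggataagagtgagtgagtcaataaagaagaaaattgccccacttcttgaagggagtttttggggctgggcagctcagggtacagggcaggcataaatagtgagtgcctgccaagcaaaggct
WIF1: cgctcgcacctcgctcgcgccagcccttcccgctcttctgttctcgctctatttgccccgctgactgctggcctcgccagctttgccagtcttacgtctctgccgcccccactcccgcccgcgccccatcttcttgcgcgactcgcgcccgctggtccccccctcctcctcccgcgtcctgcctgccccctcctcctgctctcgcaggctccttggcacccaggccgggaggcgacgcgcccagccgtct
HSD3B1: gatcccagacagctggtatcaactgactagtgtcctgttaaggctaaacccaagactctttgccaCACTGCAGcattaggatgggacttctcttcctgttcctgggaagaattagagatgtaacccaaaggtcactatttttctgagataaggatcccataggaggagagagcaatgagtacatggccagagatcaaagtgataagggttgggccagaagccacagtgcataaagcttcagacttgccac

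The NKX2-1 core stood in 2 of the 7 promoters of increases, in 5 of the 11 of decreases and in 10.7% of all 27305 promoters of the table over the same 250 bases. TTNNGNAA stood in 5 of 7, 5 of 11 and 33.6%, TGTTTNC in 1 of 7, 4 of 11 and 15.6%, and TATAAA in 1 of 7, 2 of 11 and 11.1%. SFTPD held 2 matches to the NKX2-1 core and 2 to TTNNGNAA, while WIF1 held none of the 4 motifs in this window. A match is a description of the letters and not a site, and no match says only that these letters are not in this window.

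Values are RMA log2 values, on which a difference of 1 is a factor of 2, and differences are given as the log2 difference of group means ± limma's standard error. At an adjusted p under 0.05, 1606 probe sets (6.75%) were higher in SCGB3A2+ cells than at day 22 and 1833 (7.71%) were lower, 14.5% in all. Of these, 487 (2.05%) were higher and 576 (2.42%) lower by 2-fold or more. The shares of 6.75% higher and 7.71% lower are the background for each list count against day 22 below. The median difference over all probe sets was -0.0017. All SCGB3A2+ arrays lay above both day 22 arrays for 5001 probe sets (21%) and below both for 5316 (22.3%). A lack of overlap, given below for single genes, was thus common and is a description only. The day 22 arrays correlated at 0.987, the SCGB3A2+ arrays at 0.985 to 0.987, and arrays of the 2 groups with each other at 0.956 to 0.973 (correlations over probe sets, which are no independent replicates). With 2 arrays at day 22 the number of calls depended on each of them. There were 464 higher and 548 lower calls without day 22 C, 1021 and 1277 without day 22 A, and 1023 and 1170 without SCGB3A2+ A. Where 1 day 22 array is left, its spread is assumed to be that of the other groups. Of the 3439 calls, 28.3% were also made without day 22 C, and none changed sign. The markers of other organs and of ciliated cells that differ between single arrays are given with the gene groups concerned.

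**Figure D1:**
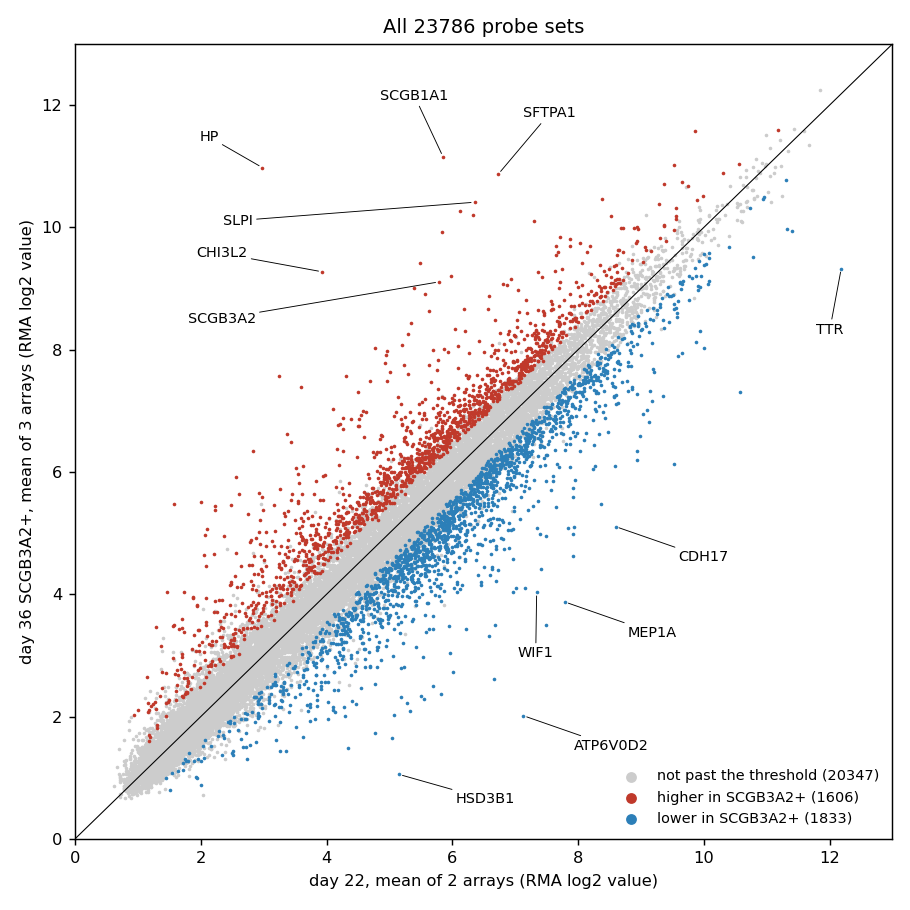
Mean of the 2 day 22 arrays (horizontal axis) against the mean of the 3 day 36 SCGB3A2+ arrays (vertical axis), both as RMA log2 values, for all 23786 probe sets. Red points (1606) were higher and blue points (1833) lower in SCGB3A2+ cells at an adjusted p under 0.05, the line marks equal values, and HP stands farthest above it.

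Of 30 measured genes of the secretory airway list, 9 (30%) rose in SCGB3A2+ cells against day 22, 2 fell and 19 did not pass, with a median difference of 0.21. Among all probe sets 6.75% were higher and 7.71% lower, so the falls were near that share. Arrays are listed here in the order A and C for day 22 and A, B and C for SCGB3A2+. SCGB1A1, the main secretoglobin of club cells, read 6.01 and 5.69 at day 22 and 10.45, 11.39 and 11.62 in SCGB3A2+ cells. The groups were far apart, and the difference was 5.30 ± 0.51, adjusted p = 0.000149, or 39.5-fold. SCGB3A2 itself, on which the sort was made, read 6.01 and 5.57 at day 22 and 9.04, 9.39 and 8.89 after it, with 2.19, 2.70 and 2.06 in the SCGB3A2- arrays, which describes the sort. The same probe set read 7.24 and 7.05 in undifferentiated day 0 cells, and whether it also binds other transcripts was not tested. The membrane mucin MUC1 went from 7.51 and 7.07 to 10.45, 9.93 and 9.93 (2.81 ± 0.24, adjusted p = 7.8e-05), with no overlap. MUC4, another membrane mucin, was 2.28 ± 0.33 higher, CYP4B1, a lung monooxygenase, 2.49 ± 0.30, the disulfide isomerase relative AGR3 1.81 ± 0.27, and MSMB, a secreted protein of mucosal glands, 3.01 ± 0.50. The 2 falls became 0 without day 22 C and with only the compared arrays and 1 without day 22 A, SCGB3A2+ A, SCGB3A2+ B or SCGB3A2+ C. Other airway secretory genes stayed dim. SCGB3A1, a secretoglobin of larger airways, read 2.41 and 2.57 at day 22 and 2.47, 2.55 and 2.01 in SCGB3A2+ cells (-0.14 ± 0.19, adjusted p = 0.704), in the dim range of these arrays, and the gel-forming mucin MUC5B read 2.50 and 2.49 against 2.77, 2.57 and 2.51.

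Antimicrobial and antiprotease genes formed the next group: of 30 measured, 10 (33.3%) rose and 2 fell. The falls were near the 7.71% of all probe sets, while 6.75% of those were higher. SLPI, a secreted inhibitor of neutrophil elastase, read 6.56 and 6.15 at day 22 and 10.64, 10.34 and 10.25 in SCGB3A2+ cells. PI3, a second elastase inhibitor whose gene lies in the same cluster on chromosome 20, read 5.83 and 6.84 against 10.68, 10.06 and 9.86. All SCGB3A2+ arrays of both genes were above both day 22 arrays, by 4.06 ± 0.34, adjusted p = 7.59e-05 and 3.86 ± 0.31, adjusted p = 6.47e-05. CHI3L2 read 4.17 and 3.69 at day 22 and 9.998, 8.77 and 9.06 in SCGB3A2+ cells (5.35 ± 0.35, adjusted p = 1.46e-05), and its SCGB3A2- arrays read 5.26, 4.37 and 5.06, all above both day 22 arrays. The iron-binding antimicrobial LTF was 2.59 ± 0.36 higher, lysozyme, LYZ, 3.09 ± 0.40, WFDC2 1.10 ± 0.18, and DUOX1, which makes hydrogen peroxide at the airway surface, 1.62 ± 0.29. TIMP1, an inhibitor of matrix metalloproteases, fell from 8.22 and 8.33 to 5.99, 5.94 and 6.35 (-2.18 ± 0.19, adjusted p = 7.8e-05). The count of falls, TIMP1 and A2M, became 1 without day 22 C or SCGB3A2+ A and with array quality weights. Outside the lists, the membrane mucin MUC21 rose from 1.96 and 2.04 to 6.72, 4.83 and 4.99 (3.52 ± 0.47, adjusted p = 0.000879), and SCGB3A2+ A was its highest array. At 0.0576 for DUOX1 and 0.146 for A2M, the adjusted p was past 0.05 without day 22 C. It was 0.103 for A2M without day 22 A. The value without SCGB3A2+ A was 0.0541 for A2M. It was 0.0729 for A2M without SCGB3A2+ C. The value with array quality weights was 0.0515 for A2M.

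**Figure D2:**
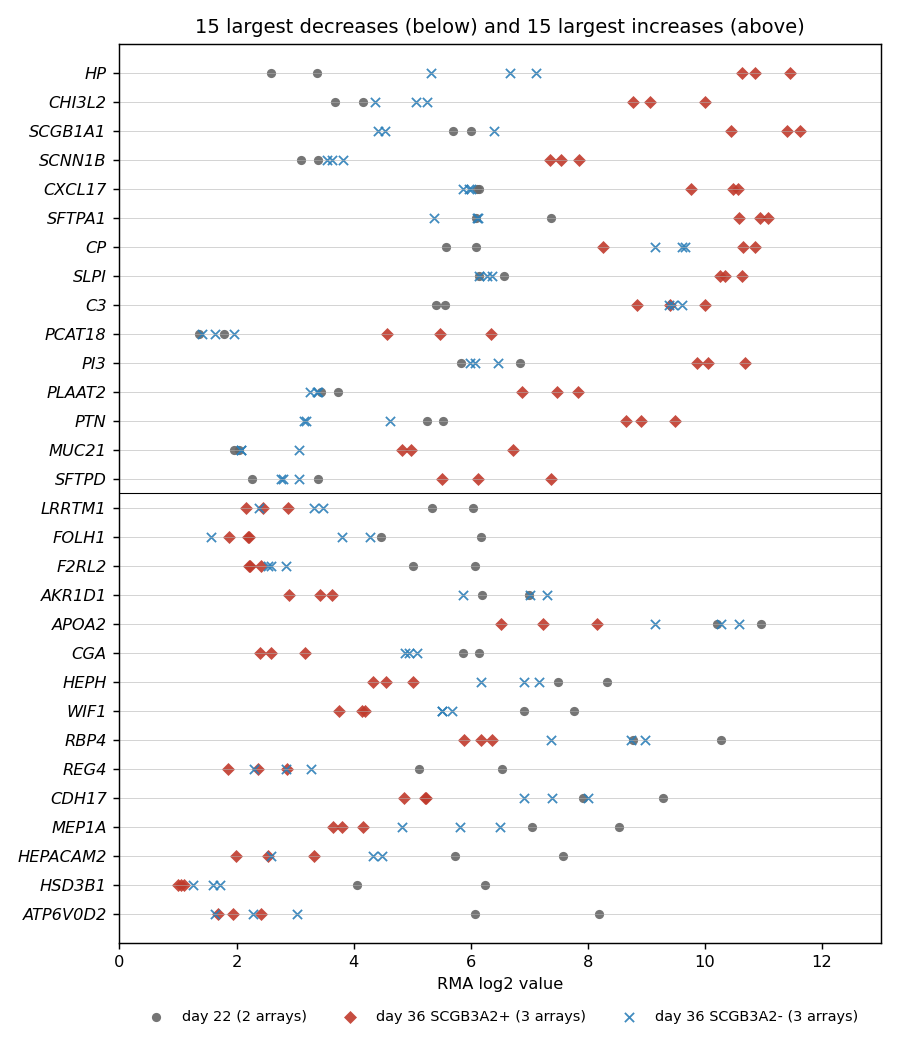
RMA log2 value of each array (horizontal axis) for the 15 largest increases and 15 largest decreases of SCGB3A2+ cells against day 22, with day 22 as circles, SCGB3A2+ as diamonds and SCGB3A2- as crosses. No SCGB3A2+ array overlapped a day 22 array for these genes, as the rule that chose them required, and for CP and C3 the SCGB3A2- arrays lay with the SCGB3A2+ arrays.

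Secreted defence proteins changed gene by gene. CXCL17 read 6.14 and 6.10 at day 22 and 10.56, 10.48 and 9.77 in SCGB3A2+ cells, while CXCL8, the neutrophil-attracting chemokine, went from 6.83 and 6.17 to 4.65, 4.25 and 4.45. Both groups were separate for each, with differences of 4.15 ± 0.21, adjusted p = 5.02e-06 for CXCL17 and -2.05 ± 0.28, adjusted p = 0.000943 for CXCL8. Of 23 measured chemokines and cytokines 2 rose and 3 fell, beside 6.75% and 7.71% of all probe sets. The 2 rises became 1 without day 22 A, day 22 C or SCGB3A2+ A and with only the compared arrays. Among 17 complement genes 4 rose and 2 fell. The rises were those of C3, the central complement component (5.40 and 5.56 to 9.997, 8.85 and 9.40, 3.93 ± 0.27, adjusted p = 1.95e-05), of C2 (2.56 ± 0.25), of C6 (2.38 ± 0.29) and of the inhibitor CFI (2.30 ± 0.25). The falls were those of C5 (-0.93 ± 0.25, adjusted p = 0.0272) and of the secreted chaperone CLU (-0.87 ± 0.20, adjusted p = 0.0144). The call was lost without day 22 C, with an adjusted p of 0.115 for CLU and 0.123 for C5. It was 0.0582 for CLU and 0.128 for C5 without day 22 A. The value without SCGB3A2+ A was 0.0523 for CLU and 0.092 for C5. It was 0.0519 for CLU and 0.0696 for C5 with only the arrays compared. The value without SCGB3A2+ B was 0.0752 for C5.

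Genes that handle iron and heme split in both directions, with 7 of 22 higher and 4 lower, beside 6.75% and 7.71% of all probe sets. Haptoglobin, HP, which binds free hemoglobin, was the largest increase of all named genes. Its level was 3.37 and 2.58 at day 22, 11.45, 10.86 and 10.63 in SCGB3A2+ cells and 7.12, 6.68 and 5.33 in SCGB3A2- cells. The difference from day 22 was 8.003 ± 0.48, adjusted p = 8.37e-06. Ceruloplasmin, CP, a copper oxidase that oxidises iron, went from 5.57 and 6.09 to 10.66, 10.86 and 8.26 (4.10 ± 0.58, adjusted p = 0.00119), and SCGB3A2+ C was its lowest array of the sort. The metalloreductase STEAP4 went from 4.50 and 4.11 to 7.56, 7.49 and 7.66 (3.26 ± 0.19, adjusted p = 7.62e-06), and the duodenal-type reductase CYBRD1 was 2.22 ± 0.19 higher. HEPH, the ferroxidase of the gut wall, fell from 7.49 and 8.33 to 5.01, 4.33 and 4.55 (-3.28 ± 0.31, adjusted p = 0.00012), and the metal importer SLC39A14 fell too (-1.35 ± 0.17). Leaving out day 22 C gave 2 lower genes of this list in place of 4.

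The surfactant and type 2 list leaned upward in SCGB3A2+ cells: 10 of 19 (52.6%) rose and 1 fell, with a median difference of 1.362. The surfactant protein gene SFTPA1 read 7.37 and 6.09 at day 22 and 10.95, 10.59 and 11.08 in SCGB3A2+ cells (4.14 ± 0.40, adjusted p = 0.000151). It shares nearly all its sequence with SFTPA2, so its signal may include that gene. SFTPD read 3.40 and 2.26 against 7.38, 6.12 and 5.52 (3.51 ± 0.44, adjusted p = 0.000583), and the groups did not overlap. LAMP3, a protein of lamellar bodies, read 8.11 and 7.25 against 9.71, 9.22 and 9.86, and ABCA3, which pumps lipid into them, 6.46 and 5.70 against 8.22, 7.57 and 8.40. These differences were 1.92 ± 0.27, adjusted p = 0.00117 and 1.98 ± 0.26, adjusted p = 0.000807. NAPSA, the protease that processes surfactant protein B, was 2.51 ± 0.29 higher, the kinase gene LRRK2 2.93 ± 0.35, the amino acid transporter SLC6A14 2.95 ± 0.33 and the phosphate transporter SLC34A2 1.70 ± 0.36. Some surfactant genes did not pass in the fit over all arrays. SFTPB was already high at day 22 (11.93 and 11.77) and read 12.26, 12.20 and 12.30 in SCGB3A2+ cells (0.41 ± 0.14, adjusted p = 0.0765). Those were also the highest values of any probe set on these SCGB3A2+ arrays, and whether the signal was saturated was not tested. SFTPB had a call where variances were robust and followed intensity (adjusted p = 0.0247) and with dim probe sets left out (adjusted p = 0.0499). SFTPC, a surfactant gene known from type 2 cells, read 7.66 and 6.85 against 7.58, 6.87 and 8.09, and the groups overlapped (0.25 ± 0.40, adjusted p = 0.759). ETV5, a transcription factor of distal lung, was the member that fell (-1.30 ± 0.20, adjusted p = 0.00165). An adjusted p above 0.05 was found without day 22 C: 0.0543 for SFTA2, 0.137 for SLC34A2 and 0.205 for PGC. It was 0.0572 for SLC34A2 and 0.0517 for PGC with only the arrays compared. The value without SCGB3A2+ A was 0.0604 for PGC.

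Part of the genes known from flat type 1 cells were also higher: 8 of 15 rose, none fell, and the median difference was 0.75. The chloride channel relative CLIC5 went from 3.97 and 3.92 to 5.65, 5.28 and 5.68 (1.59 ± 0.20, adjusted p = 0.000508), PDPN, the podoplanin gene, from 6.60 and 6.41 to 8.23, 7.81 and 7.85, and CAV1, which builds caveolae, from 5.51 and 5.37 to 6.23, 6.07 and 6.28. The groups were separate for each of these, with differences of 1.46 ± 0.27 for PDPN and 0.75 ± 0.21 for CAV1. HOPX (0.86 ± 0.19, adjusted p = 0.0103), AGER (0.82 ± 0.14, adjusted p = 0.00344) and EMP2 (0.93 ± 0.17, adjusted p = 0.00502) rose by less than 2-fold. Leaving out day 22 C left 1 of the 15 past the threshold, and at an unadjusted p under 0.05 1 was lower. At that unadjusted threshold, 13.1% of the whole array was higher and 14.4% lower. At 0.0578 for PDPN, 0.21 for CAV1, 0.138 for HOPX, 0.0573 for AGER and 0.0762 for EMP2, the adjusted p was past 0.05 without day 22 C. It was 0.0879 for CAV1 without day 22 A. The value without SCGB3A2+ A was 0.0876 for CAV1. It was 0.0764 for CAV1 without SCGB3A2+ C.

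Motile cilia genes rose in part and unevenly between arrays. Of 27 measured, 11 (40.7%) rose and none fell, with a median difference of 0.81. DNAH5, a dynein heavy chain of cilia, read 3.30 and 3.06 at day 22 and 5.25, 5.25 and 4.60 in SCGB3A2+ cells (1.85 ± 0.21, adjusted p = 0.000333), a clear separation. RSPH1, of the radial spokes, read 2.11 and 2.40 against 3.03, 4.37 and 3.72 (1.45 ± 0.30, adjusted p = 0.0093), with SCGB3A2+ B highest. MCIDAS, which starts the making of many cilia, rose by 1.62 ± 0.41 and SNTN, of the ciliary tip, by 1.65 ± 0.47, both from dim levels. FOXJ1, the transcription factor of motile cilia, did not pass: it read 4.39 and 4.63 at day 22 and 4.33, 5.46 and 4.45 in SCGB3A2+ cells (0.24 ± 0.29, adjusted p = 0.678), and only SCGB3A2+ B was above both day 22 arrays. The mean level of the list was 2.95 and 2.89 at day 22, 3.37, 4.42 and 3.57 in SCGB3A2+ cells and 3.09 to 3.26 in SCGB3A2- cells. The count of 11 became 2 with only the arrays compared, 4 without day 22 A and 1 without day 22 C. The call was lost without day 22 C, with an adjusted p of 0.0513 for RSPH1, 0.199 for MCIDAS and 0.189 for SNTN. It was 0.0661 for RSPH1 and 0.121 for SNTN without day 22 A. The value with only the arrays compared was 0.0572 for RSPH1, 0.0754 for MCIDAS and 0.143 for SNTN.

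**Figure D3:**
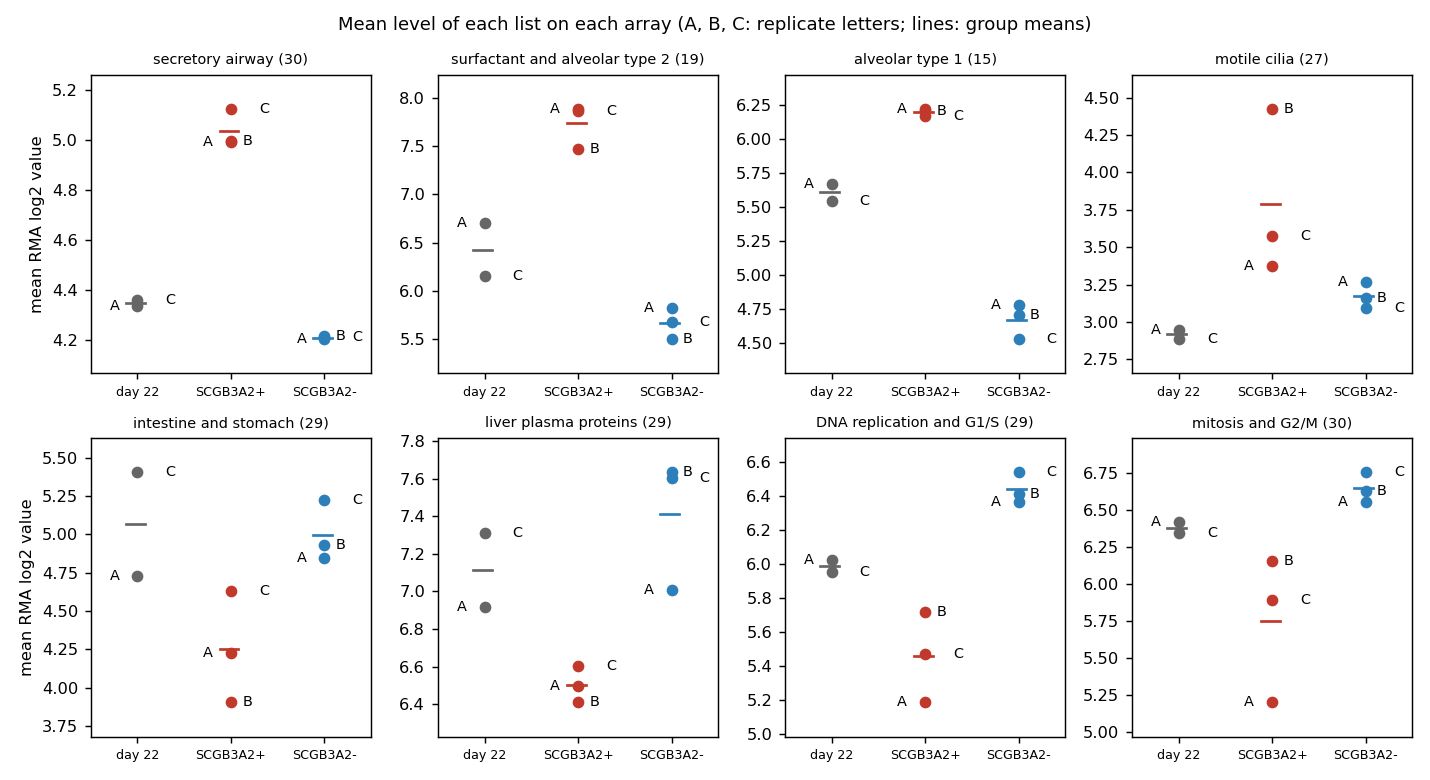
Mean RMA log2 value (vertical axes, each with its own range) of the measured genes of 8 lists on each array of day 22, SCGB3A2+ and SCGB3A2-; letters are replicate letters, lines group means and numbers in titles the genes measured. The SCGB3A2+ arrays lay above both other groups for the secretory, surfactant and type 1 lists and below them for the liver and cell cycle lists, and SCGB3A2+ B (4.42) stood above the rest for motile cilia.

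Among transcription factors of lung and foregut, 13 of 33 (39.4%) were higher and 3 lower. NKX2-1 itself read 7.02 and 6.75 at day 22 and 7.69, 7.57 and 7.63 in SCGB3A2+ cells, a small and narrowly called rise (0.75 ± 0.22, adjusted p = 0.0462). SOX2, the factor of proximal airway, went from 6.28 and 5.90 to 7.76, 8.13 and 7.22 (1.62 ± 0.33, adjusted p = 0.00815), while SOX9, known from the distal tips, read 6.68 and 6.86 against 6.20, 6.13 and 6.80 (-0.39 ± 0.21, adjusted p = 0.272). FOXA2, of foregut endoderm, rose by 0.46 ± 0.11 (adjusted p = 0.0205), and CD47, the marker of the earlier sort, by 0.72 ± 0.17 (adjusted p = 0.0152). The Iroquois gene IRX5 went from 4.16 and 3.44 to 5.34, 5.75 and 5.82 (1.84 ± 0.22, adjusted p = 0.00039), and IRX2 rose by 1.38 ± 0.18. EHF, an epithelial ETS factor, rose by 1.43 ± 0.24, and the C/EBP genes CEBPD and CEBPB by 1.31 ± 0.18 and 0.98 ± 0.16. PROX1, a factor of liver progenitors, fell (-1.13 ± 0.24, adjusted p = 0.00941). Basal cell genes (14 measured) and keratins of simple epithelia (9 measured) had 1 call in each direction each, with KRT18 lower (-0.74 ± 0.13) and KRT7 higher (0.96 ± 0.28). Of all probe sets 6.75% were higher and 7.71% lower. The basal keratin KRT5 read 1.66 and 1.99 against 2.04, 3.26 and 1.61. In the fit without day 22 C, 5 rises and 1 fall were called. The call for the basal gene that was higher, LAMB3, was lost without day 22 C (adjusted p = 0.151). An adjusted p above 0.05 was found without day 22 C: 0.29 for NKX2-1, 0.095 for SOX2, 0.139 for FOXA2, 0.181 for CD47, 0.0578 for KRT18 and 0.324 for KRT7. It was 0.0861 for NKX2-1, 0.0756 for FOXA2, 0.0838 for PROX1 and 0.0563 for KRT7 without day 22 A. The value without SCGB3A2+ A was 0.116 for NKX2-1, 0.0529 for CD47 and 0.1 for KRT7. It was 0.0744 for NKX2-1 and 0.0559 for FOXA2 without SCGB3A2+ B. The value without SCGB3A2+ C was 0.0844 for NKX2-1 and 0.115 for KRT7. It was 0.0822 for FOXA2 and 0.0818 for KRT7 with only the arrays compared. The value after another quantile normalization was 0.0592 for KRT7.

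Genes for subunits of the sodium channel that sets the liquid on the airway surface rose. SCNN1B read 3.39 and 3.10 at day 22 and 7.53, 7.35 and 7.85 in SCGB3A2+ cells (4.33 ± 0.24, adjusted p = 6.31e-06), and SCNN1G read 3.53 and 3.71 against 6.02, 5.57 and 6.72 (2.48 ± 0.31, adjusted p = 0.000583). The groups overlapped for neither gene. The alpha subunit SCNN1A rose by 0.78 ± 0.18. The water channel AQP4 went from 8.09 and 7.34 to 9.99980, 9.61 and 9.90 (2.12 ± 0.31, adjusted p = 0.00128). The carbonic anhydrase CA12 fell from 5.67 and 7.23 to 4.01, 4.15 and 4.43 (-2.26 ± 0.40, adjusted p = 0.00381). In all, 6 of 20 genes of ion and water transport rose and 3 fell, or 3 and 1 without day 22 C. Among proton pump subunits and cathepsins, 4 of 22 rose and 6 fell. For both lists, the shares over all probe sets were 6.75% higher and 7.71% lower. ATP6V0D2, a pump subunit of acid-secreting cells and osteoclasts, was the largest decrease of all named genes: it read 6.07 and 8.19 at day 22 and 1.68, 2.41 and 1.95 in SCGB3A2+ cells (-5.12 ± 0.52, adjusted p = 0.000181). Its relative ATP6V0D1, the widely expressed form, fell by less (-0.72 ± 0.14, adjusted p = 0.0057), and the subunit ATP6V1C2 rose (1.55 ± 0.27, adjusted p = 0.00327). Without day 22 C the counts of this list were 1 and 2, and without SCGB3A2+ A 2 rose. At 0.153 for SCNN1A and 0.0759 for ATP6V0D1, the adjusted p was past 0.05 without day 22 C.

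Many genes of the joint intestine and stomach list were lower in SCGB3A2+ cells: 11 of 29 (37.9%) fell and 1 rose, with a median difference of -0.68. The stomach markers TFF2, CLDN18, CTSE and GKN1 went the other way, with all SCGB3A2+ arrays above both day 22 arrays. Of these, TFF2 and CLDN18 passed the threshold. MEP1A, a brush border protease, read 7.05 and 8.53 at day 22 and 3.81, 3.65 and 4.16 in SCGB3A2+ cells (-3.92 ± 0.46, adjusted p = 0.000387). CDH17, the intestinal cadherin, read 7.92 and 9.28 against 5.24, 4.85 and 5.22 (-3.49 ± 0.49, adjusted p = 0.00111), and VIL1, of the microvillus core, 7.28 and 7.86 against 5.60, 5.34 and 6.19 (-1.87 ± 0.23, adjusted p = 0.000503). In each, both day 22 arrays were above all SCGB3A2+ arrays, and day 22 C was the higher of the pair. The secreted lectin REG4 (-3.46 ± 0.40) and the guanylin receptor GUCY2C (-3.04 ± 0.43) fell to dim levels. CDX2, the master factor of intestine, read 4.95 and 6.83 at day 22 and 4.67, 4.12 and 4.47 in SCGB3A2+ cells, a wide spread at day 22, and did not pass (-1.47 ± 0.51, adjusted p = 0.081). Without day 22 A, its lower array at day 22, the CDX2 difference passed (adjusted p = 0.0118). The stomach trefoil gene TFF2 was the member that rose (1.92 ± 0.38, adjusted p = 0.00734). The list mean was 4.73 and 5.40 at day 22 and 4.22, 3.90 and 4.63 in SCGB3A2+ cells, and day 22 C was above day 22 A for 22 of the 29 genes. When day 22 C was left out, 6 genes were lower and 0 higher, and without SCGB3A2+ B 3 were higher. The call was lost without day 22 C, with an adjusted p of 0.0525 for TFF2.

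Of 29 genes for plasma proteins of liver 11 fell and 2 rose, with a median of -0.68. The retinol carrier RBP4 read 8.78 and 10.28 at day 22 and 6.35, 5.88 and 6.17 in SCGB3A2+ cells (-3.40 ± 0.48, adjusted p = 0.00117), and its partner TTR, the thyroid hormone carrier, 12.13 and 12.24 against 8.97, 9.43 and 9.58 (-2.86 ± 0.31, adjusted p = 0.000279). Vitronectin, VTN, fell by 2.74 ± 0.34 and the apolipoprotein gene APOA2 from 10.20 and 10.95 to 6.52, 7.23 and 8.15 (-3.28 ± 0.68, adjusted p = 0.00893). Albumin, ALB, read 11.06 and 11.20 against 10.66, 11.11 and 11.18, and the groups overlapped (-0.15 ± 0.26, adjusted p = 0.785). AFP read 11.43 and 11.37 against 9.41, 9.91 and 10.49 (-1.46 ± 0.41, adjusted p = 0.0364). The rises were those of HP and of FGG, a fibrinogen chain (1.72 ± 0.26, adjusted p = 0.00159). The liver list mean was 6.92 and 7.31 at day 22 and 6.50, 6.41 and 6.61 in SCGB3A2+ cells, and 4 genes were lower without day 22 C. More liver genes fell than rose, while more secretory airway genes rose than fell. The part of the liver genes in the airway results was not tested. An adjusted p above 0.05 was found without day 22 C: 0.101 for APOA2 and 0.17 for AFP. It was 0.135 for AFP without day 22 A. The value without SCGB3A2+ A was 0.118 for AFP. It was 0.0733 for AFP without SCGB3A2+ B.

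Of the decreases outside the lists, HSD3B1 fell from 4.06 and 6.24 at day 22 to 1.05, 1.11 and 0.99 (-4.10 ± 0.45, adjusted p = 0.000289), near the lowest values of these arrays. HEPACAM2, an adhesion protein of gut secretory cells, went from 5.73 and 7.58 to 1.999, 3.33 and 2.53 (-4.03 ± 0.62, adjusted p = 0.00174). AKR1D1, a bile acid enzyme of liver, went from 6.18 and 6.997 to 2.89, 3.43 and 3.63 (-3.27 ± 0.40, adjusted p = 0.000462). CGA, the shared subunit of glycoprotein hormones, was lower (a difference of -3.28 ± 0.24), as were the thrombin receptor relative F2RL2 (-3.25 ± 0.24), the synaptic protein LRRTM1 (-3.20 ± 0.37) and the folate-releasing peptidase FOLH1 (-3.23 ± 0.66). Among increases outside the lists were the growth factor PTN (5.26 and 5.52 to 8.65, 9.49 and 8.91, 3.62 ± 0.39, adjusted p = 0.00027), the noncoding RNA PCAT18 (3.90 ± 0.38, adjusted p = 0.000153) and the acyltransferase PLAAT2 (3.80 ± 0.22, adjusted p = 8.37e-06). For each of these the groups did not overlap, as the choice of the largest changes required. At 0.119 for FOLH1, the adjusted p was past 0.05 without day 22 C.

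**Figure D4:**
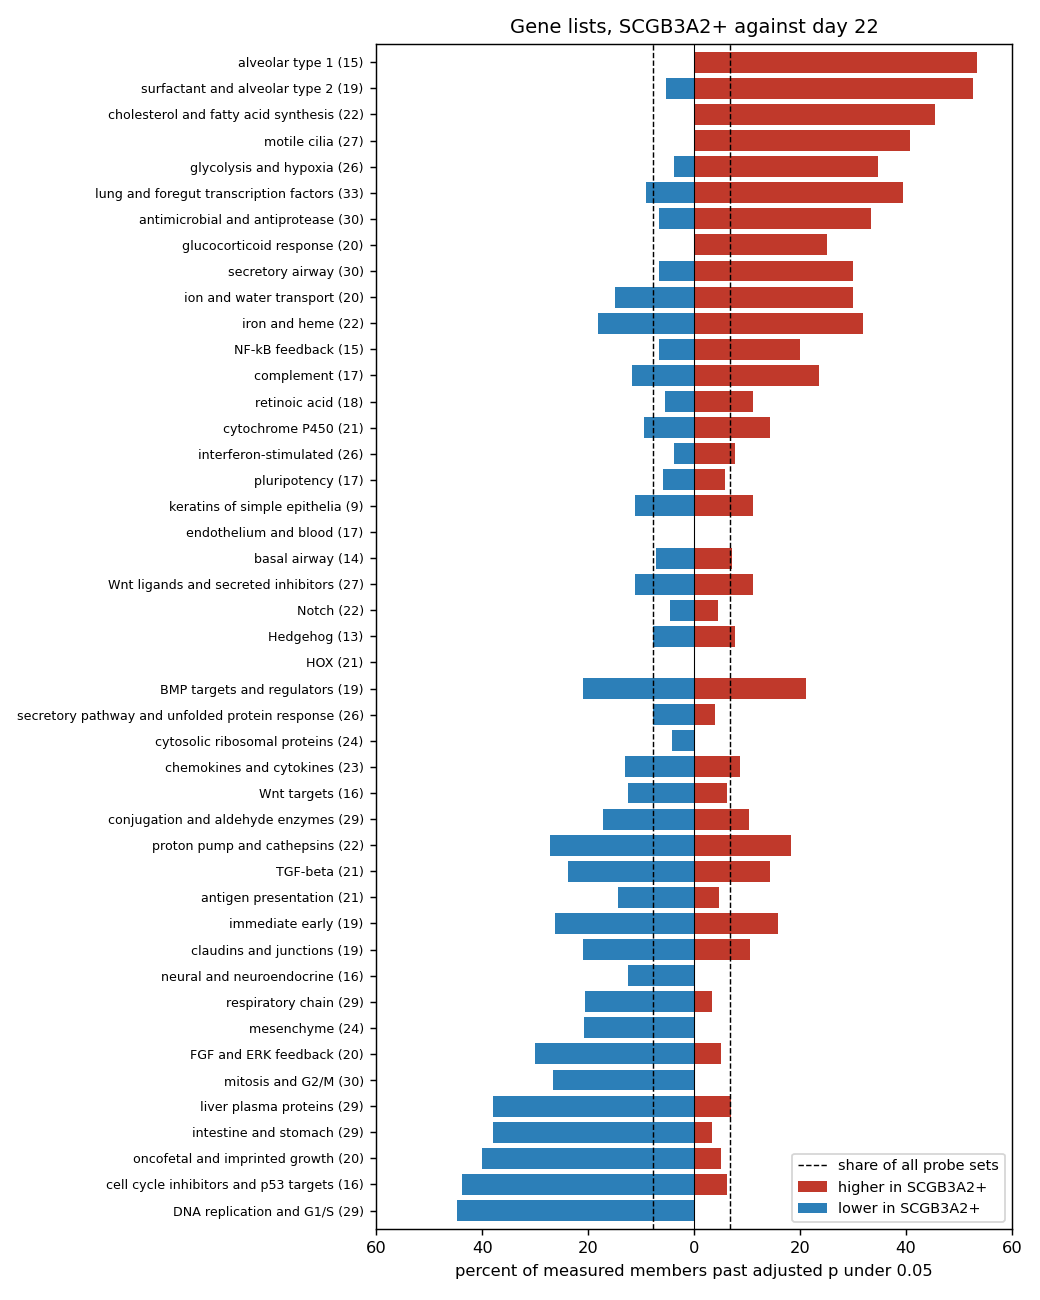
Share of the measured genes of each of 45 lists (number measured in parentheses) that was higher (red, to the right) or lower (blue, to the left) in SCGB3A2+ cells than at day 22, as percent on the horizontal axis, at an adjusted p under 0.05. Dashed lines mark the shares among all probe sets, 6.75% higher and 7.71% lower; the type 1 (53.3%) and type 2 (52.6%) lists had the greatest shares higher of the 45 and DNA replication (44.8%) the greatest share lower.

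Genes for secreted Wnt inhibitors changed in both directions. The inhibitor WIF1 read 7.76 and 6.92 at day 22 and 3.75, 4.15 and 4.20 in SCGB3A2+ cells (-3.31 ± 0.22, adjusted p = 1.64e-05), and DKK1, a second inhibitor, 8.17 and 7.69 against 4.51, 5.24 and 5.56 (-2.83 ± 0.32, adjusted p = 0.000319). FRZB, another inhibitor, rose from 4.33 and 4.18 to 7.13, 6.67 and 6.87 (2.63 ± 0.28, adjusted p = 0.000255). Ligands and secreted inhibitors counted 3 of 27 higher and 3 lower, and Wnt targets 1 of 16 higher and 2 lower. Of all probe sets 6.75% were higher and 7.71% lower. In the FGF and ERK feedback list 6 of 20 fell and 1 rose: the phosphatase gene DUSP5 read 7.17 and 8.14 against 5.29, 5.17 and 5.84 (-2.22 ± 0.31, adjusted p = 0.00104), and the receptor genes EPHA2 (-1.33 ± 0.16) and FGFR4 (-1.76 ± 0.31) were lower. Without day 22 C, 3 fell and 0 rose in the FGF list (also 0 rises without day 22 A), 1 gene of the Wnt ligand and inhibitor list rose, and 0 Wnt targets rose and 1 fell. The 3 rises of ligands and inhibitors became 1 without day 22 C or SCGB3A2+ A and with only the compared arrays. With dim probe sets left out, 6 of the Wnt ligands and inhibitors were lower. The call was lost without day 22 C, with an adjusted p of 0.0637 for FGFR4.

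The Notch ligand JAG1 fell from 9.05 and 9.30 to 6.81, 7.41 and 7.26 (-2.01 ± 0.17, adjusted p = 7.8e-05) and HEY1, a Notch target, rose (1.19 ± 0.27, adjusted p = 0.0137), the calls among 22 Notch genes. Among 19 BMP genes 4 rose and 4 fell. The ligand BMP2 went from 6.64 and 6.97 to 4.72, 4.82 and 5.19 (-1.90 ± 0.22, adjusted p = 0.000333), the BMP-induced ID4 rose by 1.40 ± 0.20 and the antagonist NOG by 1.14 ± 0.20. Of 21 TGF-beta genes 3 rose and 5 fell. The matrix protein CCN2, a target, went from 10.20 and 9.81 to 7.70, 8.18 and 8.22 (-1.97 ± 0.22, adjusted p = 0.000333), the ligand TGFB1 (-1.35 ± 0.23), the latent ligand binder LTBP1 (-1.70 ± 0.24) and the signal carrier SMAD3 (-1.16 ± 0.14) fell, while the receptor TGFBR1 rose by 1.32 ± 0.17. Hedgehog genes had 1 call each way among 13, GLI3 higher (1.66 ± 0.28) and SMO lower (-0.85 ± 0.18). The Notch and Hedgehog counts were near the shares of all probe sets, 6.75% higher and 7.71% lower. BMP calls without day 22 C were 1 rise and 1 fall, and without day 22 A 2 rose. The 1 Hedgehog fall became 0 without day 22 C and with only the compared arrays and 2 without day 22 A or SCGB3A2+ B. An adjusted p above 0.05 was found without day 22 C: 0.171 for HEY1, 0.0573 for NOG and 0.142 for SMO. It was 0.0603 for SMO with only the arrays compared.

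Part of the cell cycle genes fell. Of 29 genes of DNA replication and G1/S 13 (44.8%) fell and none rose, with a median of -0.55, and of 30 genes of mitosis and G2/M 8 (26.7%) fell and none rose, with a median of -0.58. Cyclin E, CCNE1, read 5.67 and 5.53 at day 22 and 4.40, 4.54 and 4.25 in SCGB3A2+ cells (-1.20 ± 0.21, adjusted p = 0.00317). The origin binder ORC1 (-0.94 ± 0.16) and the helicase subunit MCM7 (-1.01 ± 0.18) fell as well. CENPE, a kinetochore motor, read 8.38 and 7.53 against 5.53, 5.98 and 6.07 (-2.09 ± 0.23, adjusted p = 0.000294). MKI67, the usual proliferation marker, read 7.25 and 7.31 against 6.23, 7.06 and 6.96 and did not pass (-0.53 ± 0.21, adjusted p = 0.125). The mean of the mitosis list was 6.42 and 6.35 at day 22 and 5.20, 6.16 and 5.90 in SCGB3A2+ cells, so SCGB3A2+ A was lowest and SCGB3A2+ B nearest to day 22. The replication count became 3 with only the arrays compared, 3 without either day 22 array and 5 without SCGB3A2+ A. The mitosis count fell from 8 to 1 when day 22 C was dropped, to 3 when day 22 A was, and to 3 in a fit of the 5 compared arrays. It was 4 or 5 when SCGB3A2+ A or C was dropped, and 15 when SCGB3A2+ B was. At an unadjusted p under 0.05, 0 mitosis and 0 replication genes were higher. Among cell cycle inhibitors and p53 targets 7 of 16 fell and 1 rose, the inhibitor CDKN1B (0.94 ± 0.16, adjusted p = 0.00287). That count of falls was 2 without day 22 A and 1 without day 22 C.

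Oncofetal genes, which are active in fetal tissue and fall as organs mature, had 8 of 20 lower and 1 higher. The shares over all probe sets were 7.71% lower and 6.75% higher. The RNA-binding protein LIN28B read 5.81 and 5.83 at day 22 and 4.09, 4.10 and 4.82 in SCGB3A2+ cells (-1.48 ± 0.24, adjusted p = 0.00259), and the surface glypican GPC3 9.49 and 9.68 against 7.64, 8.39 and 7.65 (-1.69 ± 0.29, adjusted p = 0.00311). Both groups were separate in each. Once day 22 C was left out, 2 of these genes were lower and 0 higher, and without SCGB3A2+ C 2 were higher. Of 24 mesenchymal genes 5 fell and none rose, among them fibronectin, FN1 (-1.33 ± 0.24), and N-cadherin, CDH2 (7.67 and 8.16 to 4.91, 6.16 and 5.68, -2.33 ± 0.33, adjusted p = 0.00121), or 2 without day 22 C. VIM read 6.38 and 7.11 against 8.49, 8.83 and 6.99 with an overlap (1.359 ± 0.48, adjusted p = 0.0837), and passed without SCGB3A2+ C (adjusted p = 0.0067). The epithelial adhesion gene EPCAM read 10.18 and 10.20 at day 22 and 10.34, 10.29 and 10.24 in SCGB3A2+ cells (0.10 ± 0.12, adjusted p = 0.684).

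Genes of lipid synthesis rose in part: 10 of 22 genes of cholesterol and fatty acid synthesis rose and none fell, with a median of 0.45, or 6 rises without day 22 A. The desaturase SCD read 9.51 and 9.53 at day 22 and 11.17, 11.03 and 10.88 in SCGB3A2+ cells (1.51 ± 0.20, adjusted p = 0.000839), and fatty acid synthase, FASN, 8.96 and 8.91 against 10.12, 9.83 and 10.09 (1.08 ± 0.14, adjusted p = 0.000863). Their regulator SREBF1 rose by 0.88 ± 0.13 and INSIG1, which holds it back, by 1.15 ± 0.14. In the glycolysis and hypoxia list 9 of 26 rose and 1 fell, beside 6.75% and 7.71% of all probe sets. The list mean was 6.12 and 6.29 at day 22 and 7.17, 7.16 and 6.43 in SCGB3A2+ cells. In SCGB3A2- cells it was 6.97, 6.68 and 6.41. SCGB3A2+ C was thus nearest to day 22, and the count of rises became 13 without it. The oxygen sensor EGLN3 read 2.84 and 2.28 at day 22 and 6.31, 6.66 and 4.78 in SCGB3A2+ cells (3.35 ± 0.49, adjusted p = 0.00139), with SCGB3A2+ C lowest, and the stress gene NDRG1 rose by 1.67 ± 0.27. That count was 4 with only the arrays compared, 4 without day 22 A, and 3 without day 22 C, SCGB3A2+ A or SCGB3A2+ B. Of 29 respiratory chain genes 1 rose and 6 fell, or 0 and 1 without day 22 C and 3 falls without SCGB3A2+ A and 2 with only the compared arrays. The 1 fall in glycolysis and hypoxia became 0 without day 22 C.

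Cytochrome P450 genes had 3 of 21 higher and 2 lower, beside 6.75% and 7.71% of all probe sets. CYP1A1, the enzyme induced by aryl hydrocarbons, fell from 8.28 and 8.46 to 5.46, 4.97 and 5.99 (-2.90 ± 0.29, adjusted p = 0.000181), while its relative CYP1B1 rose from 6.78 and 7.14 to 7.68, 7.73 and 8.05 (0.86 ± 0.22, adjusted p = 0.0212). The microsomal glutathione transferase MGST1 rose by 1.23 ± 0.16 and GSTA4 by 1.22 ± 0.14. Glucocorticoid-responsive genes had 5 of 20 higher and none lower, among them TSC22D3 (4.38 and 4.58 to 6.57, 5.97 and 6.17, 1.76 ± 0.20, adjusted p = 0.000336) and FKBP5, a chaperone of the steroid receptor (7.51 and 6.82 to 8.80, 8.79 and 8.84, 1.64 ± 0.20, adjusted p = 0.000431). That count was 3 without either day 22 array. Immediate early genes went both ways, 3 of 19 higher and 5 lower: FOS read 6.28 and 6.55 at day 22 and 8.13, 8.21 and 8.06 in SCGB3A2+ cells (1.72 ± 0.18, adjusted p = 0.000235), and ATF3 6.18 and 6.22 against 4.29, 4.86 and 4.55 (-1.63 ± 0.16, adjusted p = 0.000152). NFKBIA, the inhibitor of NF-kB, rose by 1.28 ± 0.16 among 15 feedback genes with 3 rises and 1 fall. Those 3 rises became 1 without day 22 A, day 22 C or SCGB3A2+ A, and the 1 fall became 0 without day 22 C, SCGB3A2+ A or SCGB3A2+ B and with only the compared arrays and after another quantile normalization. The 3 P450 rises became 1 without day 22 A, the 2 falls became 1 without day 22 C and 4 without SCGB3A2+ C, and the 5 immediate early falls became 3 without day 22 C. At 0.0618 for CYP1B1, the adjusted p was past 0.05 without day 22 C. It was 0.15 for CYP1B1 without day 22 A. The value without SCGB3A2+ C was 0.0593 for CYP1B1.

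None of 17 endothelial and blood genes and none of 21 HOX genes passed in limma's fit (2 higher and 0 lower, and 0 and 0, at an unadjusted p under 0.05, against 13.1% and 14.4% of all probe sets), and leaving out 1 array gave at most 1 call in each direction among the endothelial and blood genes. The leukocyte gene PTPRC lay between 1.22 and 1.29 on these 5 arrays, near the floor, and the endothelial cadherin CDH5 between 2.22 and 2.47. For the next counts, the range over leaving out each of the 5 arrays in turn, fitting them alone and the other settings except the block follows in parentheses. Over all probe sets, limma called 6.75% higher and 7.71% lower. Among cytosolic ribosomal proteins 0 of 24 were higher and 1 lower (0 to 1 and 0 to 3), and among interferon-stimulated genes 2 of 26 were higher and 1 lower (0 to 2 and 0 to 2). In antigen presentation 1 of 21 were higher and 3 lower (0 to 1 and 1 to 3), and in the secretory pathway and unfolded protein response 1 of 26 were higher and 2 lower (0 to 1 and 1 to 4). Of retinoic acid genes 2 of 18 were higher and 1 lower (0 to 3 and 1 to 2), and of pluripotency genes 1 of 17 were higher and 1 lower (0 to 1 and 0 to 2). Among neural and neuroendocrine genes 0 of 16 were higher and 2 lower (0 to 2 and 2 to 2), and among conjugation and aldehyde enzymes 3 of 29 were higher and 5 lower (2 to 4 and 0 to 7). Of claudins and junction genes 2 of 19 were higher and 4 lower (2 to 2 and 2 to 4). At an unadjusted p under 0.05, 0 motile cilia, 0 lipid synthesis and 1 glucocorticoid-responsive gene were lower and 1 mesenchymal gene higher, where limma called none. The stomach and alveolar claudin CLDN18 rose from 5.65 and 4.74 to 7.95, 7.27 and 9.02 (2.89 ± 0.44, adjusted p = 0.00179) and CLDN1 fell from 8.20 and 8.67 to 6.79, 6.95 and 7.54 (-1.34 ± 0.21, adjusted p = 0.00217). The neuronal hydrolase UCHL1 fell from 8.92 and 9.06 to 6.11, 6.99 and 6.66 (-2.40 ± 0.26, adjusted p = 0.000254).

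Some of these differences from day 22 were found in both day 36 populations. Since both sorts were compared with the same 2 day 22 arrays, their own values are set side by side and the difference between the sorts is the test. Between the sorts 2400 probe sets (10.1%) were higher and 3040 (12.8%) lower in SCGB3A2+ cells, and between SCGB3A2- cells and day 22 7.9% were called. C3 was 3.998 ± 0.27 above day 22 in SCGB3A2- cells and 3.93 ± 0.27 in SCGB3A2+ cells, and the sorts did not differ past the threshold (-0.07 ± 0.24, adjusted p = 0.896). The same held for LYZ (3.54 ± 0.40 in SCGB3A2-, 3.09 ± 0.40 in SCGB3A2+, difference -0.46 ± 0.36, adjusted p = 0.443), CLDN18 (2.86 ± 0.44, 2.89 ± 0.44, 0.02 ± 0.40, adjusted p = 0.977), FRZB (2.75 ± 0.28, 2.63 ± 0.28, -0.11 ± 0.25, adjusted p = 0.825) and FOS (1.69 ± 0.18, 1.72 ± 0.18, 0.03 ± 0.16, adjusted p = 0.944). CP was 3.65 ± 0.58 above day 22 in SCGB3A2- cells, and its sorts differed by 0.45 ± 0.52, adjusted p = 0.627. That rested on SCGB3A2+ C, the lowest CP array of the sort: without it the sorts differed (adjusted p = 0.0012). Among decreases, ATP6V0D2 (-4.81 ± 0.52 in SCGB3A2-, sorts -0.30 ± 0.46, adjusted p = 0.731), HSD3B1 (-3.63 ± 0.45, -0.47 ± 0.40, adjusted p = 0.484, but adjusted p = 0.0444 with only the sorted arrays), CYP1A1 (-3.08 ± 0.29, 0.18 ± 0.26, adjusted p = 0.71), F2RL2 (-2.89 ± 0.24, -0.37 ± 0.22, adjusted p = 0.281) and REG4 (-3.02 ± 0.40, -0.44 ± 0.36, adjusted p = 0.461) fell in both sorts with no call between them in the fit over all arrays. A p that misses the threshold does not show that the sorts were equal.

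**Figure D5:**
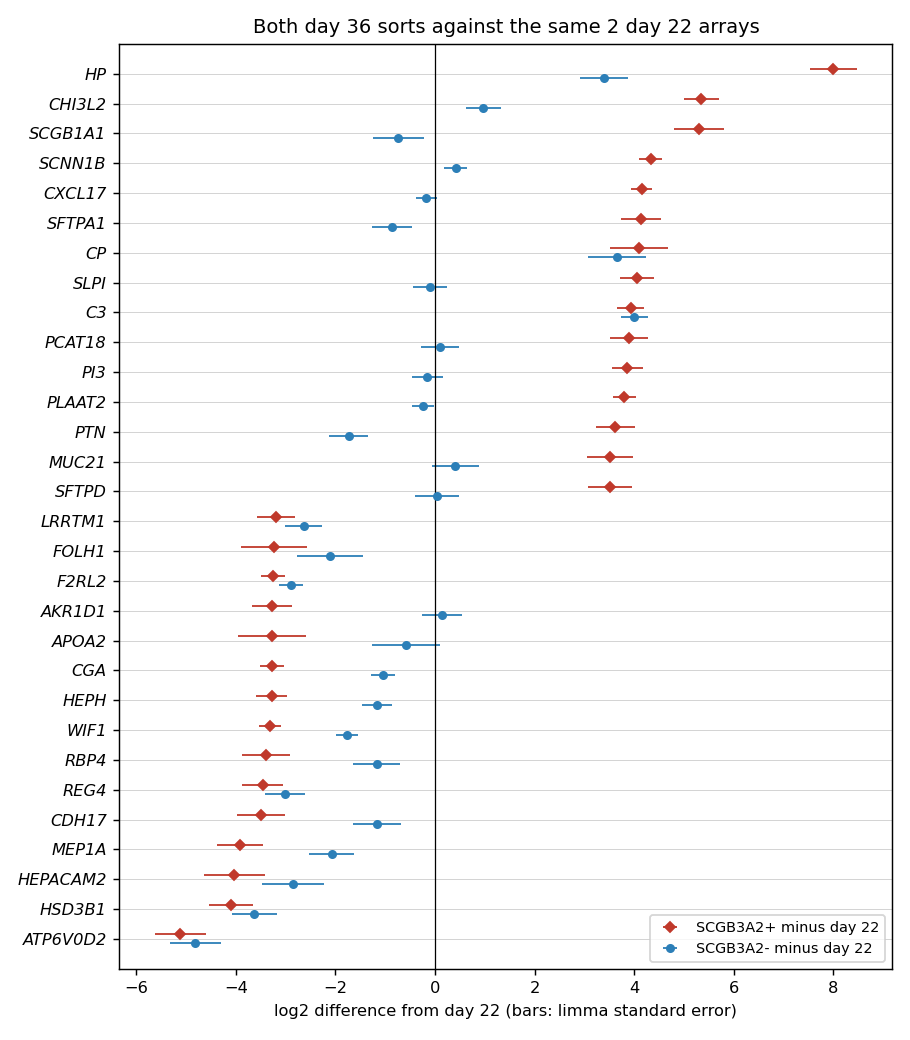
Log2 difference from day 22 (horizontal axis, bars limma's standard error) of SCGB3A2+ (diamonds) and SCGB3A2- cells (circles) for the 15 largest increases and 15 largest decreases of SCGB3A2+ cells. Both sorts share the day 22 arrays; C3 and ATP6V0D2 lay close together in the sorts, and PTN, for one, lay on opposite sides of 0.

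Other genes that changed from day 22 differed between the sorts. Some were named because they passed that test, and the rest, except HEPACAM2, were placed here because they did. Their adjusted p thus describe the genes chosen and are no independent test. SCGB1A1 read 4.54, 6.40 and 4.42 in the SCGB3A2- arrays A, B and C, -0.74 ± 0.51 from day 22, and the sorts differed by 6.04 ± 0.45, adjusted p = 4.27e-06. SCNN1B read 3.81, 3.54 and 3.63 there and differed by 3.92 ± 0.21, adjusted p = 5.23e-07, CXCL17 by 4.32 ± 0.19, adjusted p = 1.74e-07, SLPI by 4.15 ± 0.30, adjusted p = 3.56e-06, SFTPA1 by 5.002 ± 0.36, adjusted p = 3.18e-06 and PLAAT2 by 4.05 ± 0.20, adjusted p = 3.09e-07. HP rose in both, by 3.40 ± 0.48 in SCGB3A2- cells, and was 4.60 ± 0.43, adjusted p = 1.92e-05 higher in the SCGB3A2+ sort. On the lower side, AKR1D1 differed between the sorts by -3.41 ± 0.36, adjusted p = 4.29e-05, CGA by -2.24 ± 0.21, adjusted p = 2.3e-05, WIF1 by -1.54 ± 0.20, adjusted p = 0.000207 and JAG1 by -2.10 ± 0.15, adjusted p = 3.27e-06. For AKR1D1 and JAG1 the SCGB3A2- cells were 0.14 ± 0.40 and 0.08 ± 0.17 from day 22. CGA and WIF1 differed less between the sorts than SCGB3A2+ cells differed from day 22 (-3.28 and -3.31). Their SCGB3A2- means were thus also below day 22. HEPACAM2 did not differ past the threshold (-1.18 ± 0.55, adjusted p = 0.163), but did when the letters A, B and C paired the sorts (adjusted p = 0.0132) and without SCGB3A2- A (adjusted p = 0.0273).

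By list, 26 of 29 replication genes and 25 of 30 mitosis genes were lower in SCGB3A2+ than in SCGB3A2- cells, and none was higher. Of all probe sets 10.1% were higher and 12.8% lower between the sorts. Of 20 glucocorticoid-responsive genes 14 were higher than in SCGB3A2- cells and none lower, of 19 surfactant and type 2 genes 14 higher and 3 lower, and of 15 type 1 genes 11 higher and 1 lower. Liver plasma protein genes had 16 of 29 lower and 2 higher. Motile cilia genes had 9 of 27 higher and 0 lower. Oncofetal genes had 12 of 20 lower, among them the RNA-binding protein gene LIN28A, which read 2.49, 1.89 and 2.24 in SCGB3A2+ and 4.66, 5.64 and 6.15 in SCGB3A2- cells (-3.28 ± 0.38, adjusted p = 8.64e-05). For proton pump and cathepsin genes the split was 10 of 22 higher and 0 lower against SCGB3A2- cells, beside 4 higher and 6 lower against day 22.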

How the data were processed

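RNA of RUES2 cells was extracted with QIAzol and RNeasy and biotin-labelled with WT Plus reagents, per the labels' protocols. The deposited values are log2 RMA values made by the authors with affy 1.36.1 in R 2.15.1, per the submitters' processing notes; 22458 of 23786 probe sets had 1 gene symbol in the platform annotation. They were used as deposited. Array medians lay between 3.66 and 3.75. limma 3.58.1 in R 4.3.3 fitted 1 mean per group on all 12 arrays (5 groups, 7 residual and 4.43 prior degrees of freedom), and p-values were adjusted by Benjamini-Hochberg across the 23786 probe sets, with a threshold of 0.05. The fit was tested on simulated data. Same-letter deviations of the 2 sorts correlated weakly (0.104, 0.124 and 0.111), and those of day 22 and SCGB3A2- arrays likewise (A 0.126, C 0.114). The labels do not say that letters mark pairs, and the main fit ignores any pairing. For the comparison between the sorts the block is given only where it changed a call. Named genes were the 15 largest changes each way without overlap, up to 5 members of each of 45 lists with the smallest adjusted p, the 8 largest that also differed between the sorts, a fixed set and cell type markers; other list members may be named too. Of 1054 list entries 982 matched a probe set. Members and lists were chosen with earlier results of these data known. Alternatives left out each array, used only the compared arrays, changed variance estimation, weights, filter (2.96 on the log2 scale) or normalization, and added the letter as a block.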

Additional observations from a re-analysis of the deposited data

Results flagged for a closer look

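Named genes whose SCGB3A2+ and SCGB3A2- arrays moved from day 22 in opposite directions are given here with the test between the sorts. Of all probe sets 153 were called higher in SCGB3A2+ and lower in SCGB3A2- cells and 92 the other way round, and each was also called between the sorts, so the choice of these genes fixes that test and its values are a description. Both changes share the 2 day 22 arrays, and values are the SCGB3A2+ minus SCGB3A2- log2 difference ± SE. SCGB3A2, on which the sort was made, differed by 6.79 ± 0.21. NKX2-1 differed by 3.50 ± 0.20, adjusted p = 7.3e-07: its SCGB3A2- arrays read 4.18, 4.42 and 3.79, below the day 22 arrays at 7.02 and 6.75.

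The growth factor gene PTN, which was no member of a list, had SCGB3A2- arrays at 3.16, 4.63 and 3.18 and differed by 5.36 ± 0.35, adjusted p = 1.79e-06. STEAP4 (4.66 ± 0.17) and CYBRD1 (5.11 ± 0.17), both metalloreductases, the water channel AQP4 (4.76 ± 0.27) and the P450 genes CYP4B1 (4.19 ± 0.27) and CYP1B1 (3.98 ± 0.19) did the same, as did the type 2 genes LRRK2 (4.70 ± 0.31) and NAPSA (4.15 ± 0.26). Among type 1 genes PDPN differed by 3.89 ± 0.24, HOPX by 3.61 ± 0.17, EMP2 by 2.77 ± 0.16 and CLIC5 by 2.41 ± 0.18. CEBPD (2.60 ± 0.16), the laminin gene LAMB3 (2.42 ± 0.27), KRT7 (2.81 ± 0.25), MGST1 (1.80 ± 0.14), the retinal reductase DHRS3 (1.61 ± 0.19) and CD47 (1.46 ± 0.15) completed those higher in SCGB3A2+ cells.

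In the other direction, SCGB3A2- arrays lay above and SCGB3A2+ arrays below day 22 for FGFR4 (-3.03 ± 0.28), BAMBI, a decoy receptor of TGF-beta signals (-2.78 ± 0.23), ETV4, a factor downstream of FGF (-2.46 ± 0.23), PROX1 (-2.32 ± 0.21), CLU (-1.93 ± 0.18) and the replication licensing gene CDC6 (-1.47 ± 0.16). For each of these genes the SCGB3A2+ call against day 22 was lost in some setting, for CDC6 with only the arrays compared (adjusted p = 0.0776). Among the genes higher in SCGB3A2+ cells it was lost for DHRS3 without SCGB3A2+ A (adjusted p = 0.0903). It was also lost in some setting for NKX2-1, PDPN, HOPX, EMP2, LAMB3, KRT7, CYP1B1 and CD47. No group held the 4 arrays that a search for single outlying arrays needs.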

How the results depend on the processing

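Counts of calls differed most with which arrays were in the fit and with the threshold. The 1606 probe sets higher than day 22 became 834 with only the arrays compared, 652 at an adjusted p under 0.01, and 464 to 1563 when 1 array was left out. The 1833 lower became 1035, 770 and 548 to 1637. At 2-fold or more the ranges were 303 to 590 higher and 359 to 742 lower, the lowest without day 22 C. The other settings (trend with robust variances, array weights, dim probe sets left out, quantile normalization, median centring) kept each of these counts within 1.5 times, and all counts of SCGB3A2+ against SCGB3A2- stayed within it. The letters were not shown to pair day 22 with SCGB3A2+ arrays (same-letter correlations 0.0302 and 0.0584). With the letter as a replicate block there were 1392 higher and 1645 lower calls against day 22, and between the sorts 2319 higher and 2935 lower. Under the block NKX2-1 against day 22 had an adjusted p of 0.0989 and CDX2 of 0.0441. Over named genes, called list members and settings, 3569 values against day 22 kept their side of the threshold, 525 lost the call and 31 gained one. With a call in either fit, 0 reversed direction, and direction was not followed where neither fit made a call. With dim probe sets left out, 6 genes of the Wnt ligand and inhibitor list fell, 2 Wnt targets rose and 2 intestine and stomach genes rose, in place of 3, 1 and 1. Under the block 4 cell cycle inhibitors and 0 NF-kB feedback genes fell, in place of 7 and 1. Of the list counts 907 stayed within 1.5 times and 173 did not. The cause was not tested. Depth is not defined for arrays, and their number limits precision. In simulated data 72% of 100 changes of 1 and 98% of 100 changes of 2 on the log2 scale were called. There were 12 false calls among the rest of the 23786 probe sets. The simulation used independent normal noise and far fewer changes than the 3439 calls made here, so its shares may not hold for the real arrays.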

Other observations

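Some stomach genes are given apart from the intestinal ones. TFF2 read 5.08 and 5.30 at day 22, 7.26, 6.34 and 7.74 in SCGB3A2+ and 7.77, 7.48 and 6.99 in SCGB3A2- cells, so both sorts lay above day 22 (1.92 ± 0.38, adjusted p = 0.00734 for SCGB3A2+, adjusted p = 0.0525 without day 22 C). The gastric protease CTSE read 9.05 and 9.11 at day 22, 10.37, 9.38 and 10.86 in SCGB3A2+ and 10.79, 9.99 and 10.61 in SCGB3A2- cells, which did not pass for SCGB3A2+ cells (1.13 ± 0.36, adjusted p = 0.0574). GKN1, a secreted protein of the stomach lining, read 1.26, 1.56 and 4.07 in SCGB3A2+ arrays A, B and C and 1.06 and 1.17 at day 22, with SCGB3A2+ C far above the others, and its difference did not pass (1.18 ± 0.63, adjusted p = 0.257). These 3 genes were chosen after their values were seen. CLDN18, a stomach marker given above with the claudins, also rose in SCGB3A2+ cells (2.89 ± 0.44, adjusted p = 0.00179).

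More immediate early genes had calls in either direction. FOSB, a partner of FOS, rose from 4.82 and 4.87 at day 22 to 5.91, 6.67 and 6.41 (1.49 ± 0.20, adjusted p = 0.000976) and read 6.51, 6.84 and 6.46 in SCGB3A2- cells. The nuclear receptor NR4A1 fell from 5.84 and 5.62 to 4.04, 3.61 and 4.29 (-1.75 ± 0.18, adjusted p = 0.000224), and the sorts differed by -1.06 ± 0.16, adjusted p = 0.000655. CLDN6, a claudin of embryonic epithelium, fell from 10.13 and 10.04 to 9.02, 9.21 and 9.14 (-0.96 ± 0.12, adjusted p = 0.000538), while its SCGB3A2- arrays read 10.002, 9.98 and 10.09 (sorts -0.90 ± 0.11, adjusted p = 0.000119).

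The array's SCGB3A2 probe set read 7.24 and 7.05 in the undifferentiated cells of day 0, above both day 22 arrays (6.01 and 5.57), and 1.998 and 1.46 at day 15. SCGB1A1 read 3.66 and 3.995 at day 0, below its day 22 arrays (6.01 and 5.69), and 3.69 and 3.50 at day 15.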
